A study of Arabidopsis thaliana with 6 samples.

Results

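The WRKY genes described here are 35 members of the WRKY transcription factor family of Arabidopsis thaliana, chosen by gene identifier for expression known from leaves or stress, out of 34262 features in the deposited table. All 35 were found there. They fall into structural groups, with 9 genes of group I, 4 of groups IIa and IIb, 6 of group IIc, 7 of group IId, 2 of group IIe and 7 of group III. RNA of whole seedlings was sequenced from 3 genotypes, all in the Col-0 background. The lhp1-3 mutant is affected in LHP1, a reader of chromatin marked by Polycomb proteins. The importin123 mutant is a triple mutant in importin alpha genes, whose products carry cargo proteins into the nucleus. Col-0 is the wild type. Each genotype had 2 libraries. All genotypes were raised on MS plates (0.8% sucrose) in 16 h days and 8 h nights, and collection was at ZT12. Whether the 2 libraries of a genotype stem from independent plantings is not stated. The p-values therefore reflect only how far these samples differ, and that spread may be technical.

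WRKY proteins are plant transcription factors named after the WRKY amino acid motif of their DNA-binding domain, which also holds a zinc finger. They bind the W box, a short DNA element common in promoters of defence genes, and many WRKY genes carry W boxes in their own promoters. Group I proteins have a pair of such domains, group II proteins have a single domain and are divided into IIa to IIe, and group III proteins have a different zinc finger. The family is known for its part in immunity, in leaf senescence and in responses to heat, salt, drought and low phosphate. Some members are activators, others are repressors, and many are induced quickly and briefly.

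The libraries held 70137936 to 95101867 counts. Nuclear genes that were nearly silent carried a floor of reads, with a median of 1.53 and 1.44 RPKM (reads per kb of gene span, scaled to library size) in lhp1-3, 1.79 and 1.32 in importin123, and 0.206 and 0.248 in Col-0. Chloroplast features took 14.9% and 14.5% of counts in lhp1-3, 18.7% and 13.7% in importin123, and 2.95% and 3.27% in Col-0. The source of the floor was not tested. LHP1 stood at 3.87 and 3.21 RPKM in lhp1-3, against 5.46 and 5.11 in Col-0. In importin123, IMPA1 stood at 3.43 and 3.06 RPKM, IMPA2 at 2.33 and 2.03, and IMPA3 at 4.16 and 3.81. In Col-0 these genes stood at 23.6 and 22.6, at 33.2 and 31.2, and at 11.2 and 10.4. The mutated genes were thus lower in the libraries labelled with them. In lhp1-3, IMPA1 stood at 17.8 and 17.4 RPKM, IMPA2 at 22.3 and 24.9, and IMPA3 at 9.84 and 8.43. These also lay below Col-0, by less than in importin123. LHP1 stood at 5.77 and 6.13 RPKM in importin123. Flower marker genes summed to 34.4 and 32.5 RPKM in lhp1-3, to 10.8 and 7.91 in importin123, and to 1.504 and 1.997 in Col-0. In importin123 all 5 flower markers lay under 2 floors, in both libraries. After subtraction 3 of them were tested, and in importin123 against Col-0 AP3 and PI rose and SEP3 fell. The AP3 call was lost without Col-0 library 2, importin123 library 1 or either lhp1-3 library, and the SEP3 call without either importin123 library. So near the floor, no fold change is given for them. Leaf markers summed to 6654 and 8007 RPKM in lhp1-3, to 4659 and 5920.0 in importin123, and to 10972 and 11083 in Col-0. These sums are led by RBCS1A, and after subtraction 3 of the 5 leaf markers fell in importin123 while LHCB2.1 (1.61 ± 0.21) and LHCA1 (0.59 ± 0.17) rose there. The LHCA1 call was lost without either Col-0 library or importin123 library 2, and the RBCS1A fall without Col-0 library 2 or importin123 library 1. As deposited 1 leaf marker rose and 3 fell in importin123. In lhp1-3 all 5 leaf markers fell as deposited, whereas after subtraction only LHCA1 fell (-0.78). All 5 stayed below 0 there, with a median of -0.33. The LHCA1 call in lhp1-3 was lost without Col-0 library 2 or lhp1-3 library 1. Root markers summed to 1294 and 1164, to 877 and 836, and to 1312 and 1182 in the same order, and no marker was at 0. Of the 6 root markers, 3 had log2 fold changes above 0 and 3 below in importin123 against Col-0 after subtraction. The median was 0.18, and only 1, SCR, fell (-0.61). The part of these marker differences in the WRKY values was not tested. In whole seedlings, fewer cells of a type and less RNA per cell cannot be told apart.

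Each gene was therefore tested as deposited and again after its library's floor had been subtracted. RPKM without further words is the deposited value, and "RPKM above the floor" is the level that remains after subtraction, rescaled by the TMM factors of the subtracted fit. On the deposited counts the TMM factors were 1.06 to 1.18 in the mutants and 0.807 and 0.788 in Col-0, which sets deposited fold changes lower than the ratios of RPKM. Under RLE size factors the median log2 fold change of all features was -0.012 in lhp1-3 and 0.028 in importin123, against 0.165 and 0.198 under TMM. Below, a gene "rose" or "fell" in a mutant only if the adjusted p was under 0.05, and the count behind the call is named where the deposited and the subtracted counts differ.

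In Col-0 the WRKY genes spanned a wide range of levels. WRKY33, which drives camalexin synthesis against fungi, was the highest with 72.2 and 107 RPKM. WRKY40, a repressor of basal defence, followed with 44.3 and 87.8 RPKM, and WRKY15, known from salt and osmotic stress, with 42.6 and 54.2 RPKM. Neighbours among these 3 genes overlapped, whereas WRKY33 and WRKY15 did not, and their order was the same within each Col-0 library. Of the 34 neighbouring pairs in the Col-0 order, 24 had overlapping libraries. In all, 12 genes averaged over 10 RPKM and 5 averaged under 1 RPKM, and the median gene stood at 6.89 RPKM. The lowest was WRKY62 at 0.25 and 0.467 RPKM, close to the Col-0 floor.

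**Figure D1:**
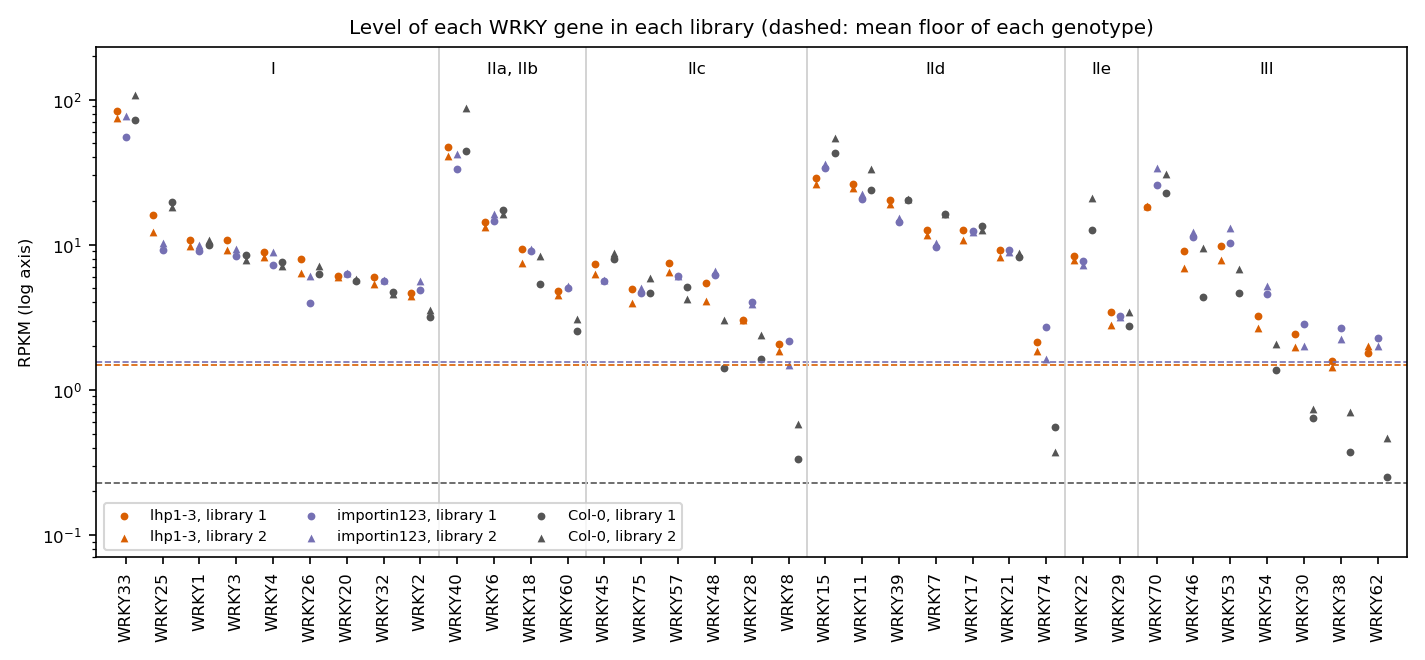
Deposited RPKM (log axis) of the 35 WRKY genes in each library, by structural group, with orange for lhp1-3, purple for importin123 and grey for Col-0, circles for library 1 and triangles for library 2. Dashed lines mark the mean floor of each genotype, and WRKY8, WRKY74, WRKY30, WRKY38 and WRKY62 lie near it in the mutants.

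The same 3 genes led in the mutants, where WRKY33 averaged 79.1 ± 6.17 RPKM in lhp1-3 and 66.0 ± 15.1 in importin123, against 89.7 ± 24.7 in Col-0 (SD, n = 2 each). WRKY22 moved furthest down the order of the genes over 10 RPKM in Col-0, ranking 17 in lhp1-3 and 18 in importin123, against 8 in Col-0. Its level was 8.04 ± 0.36 RPKM in lhp1-3 and 7.49 ± 0.278 in importin123, against 16.8 ± 5.84 in Col-0. WRKY25 ranked 7 in lhp1-3 and 12 in importin123, against 7 in Col-0. WRKY46 and WRKY53 of group III ranked 9 and 10 in importin123, 18 and 13 in lhp1-3, and 17 and 20 in Col-0. Their Col-0 ranks are loose, with libraries at 4.37 and 9.53 RPKM for WRKY46 and 4.65 and 6.84 for WRKY53. On the deposited counts neither gene was called against Col-0 in either mutant.

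Of the 35 genes, 30 stood far enough above the floor to be tested after subtraction. In lhp1-3 against Col-0, 1 of these rose and 2 fell (background 16.3% of 19631 genes called, 9.14% higher and 7.19% lower). In importin123 against Col-0, 5 rose and 5 fell (background 41.1% called, 19.4% higher and 21.7% lower). Between the mutants, 2 were higher and 3 lower in importin123 than in lhp1-3 (background 22.7% called, 9.20% higher and 13.5% lower). The WRKY genes called were 3 of 30, 10 of 30 and 5 of 30, in each comparison fewer than the background share of 30 genes. The call counts in lhp1-3 depended on single libraries, with 0 genes called without lhp1-3 library 1 (11 at an unadjusted p under 0.05 in the full fit, and 8 called by DESeq2), 1 without lhp1-3 library 2, 2 without either importin123 library and 5 without either Col-0 library. Without Col-0 library 2 the 5 were 4 that rose and 1 that fell, and without Col-0 library 1 they were 1 that rose and 4 that fell. Between the mutants 1, 2, 1 and 3 genes were called without lhp1-3 library 1, lhp1-3 library 2, importin123 library 1 and importin123 library 2, in that order. In importin123 against Col-0 9 rose and 4 fell without Col-0 library 2, and 3 rose and 8 fell without Col-0 library 1. The median log2 fold change of the 30 genes was 0.06 in lhp1-3, 0.03 in importin123 and 0.01 between the mutants, beside -0.029, -0.0040 and 0.00056 over all genes tested.

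On the deposited counts far more was called. Of 35 genes, 5 rose and 17 fell in lhp1-3 (background 75.3% of 33906 features, 41.8% higher and 33.5% lower). In importin123, 6 rose and 19 fell (background 75.5%, 42.3% higher and 33.2% lower). Between the mutants, 2 were higher and 2 lower (background 8.89%, 2.84% higher and 6.05% lower). The median log2 fold changes were -0.36, -0.40 and -0.01, beside 0.165, 0.198 and -0.027 over all features. With RLE size factors in place of TMM, 5 rose and 21 fell in lhp1-3 and 6 rose and 22 fell in importin123. With nuclear features alone, 6 rose and 15 fell in lhp1-3 and 9 rose and 16 fell in importin123. With limma on log2(RPKM + 1), which differs in test, scaling and filter together, 12 rose and 6 fell in lhp1-3 and 13 rose and 6 fell in importin123. Without Col-0 library 2, 10 rose and 13 fell in lhp1-3, and 11 rose and 17 fell in importin123. Between the mutants 0 deposited calls were made without lhp1-3 library 1 or importin123 library 1, 1 without lhp1-3 library 2 and 6 without either Col-0 library.

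The genes that passed in the same direction on both counts were WRKY15 and WRKY22 in lhp1-3, and WRKY7, WRKY22, WRKY25, WRKY39, WRKY45 and WRKY54 in importin123. All of these were lower in the mutant than in Col-0 except WRKY54, which was higher. Both comparisons share the Col-0 libraries. Values below are log2 fold changes ± SE after subtraction, followed by the deposited one.

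**Figure D2:**
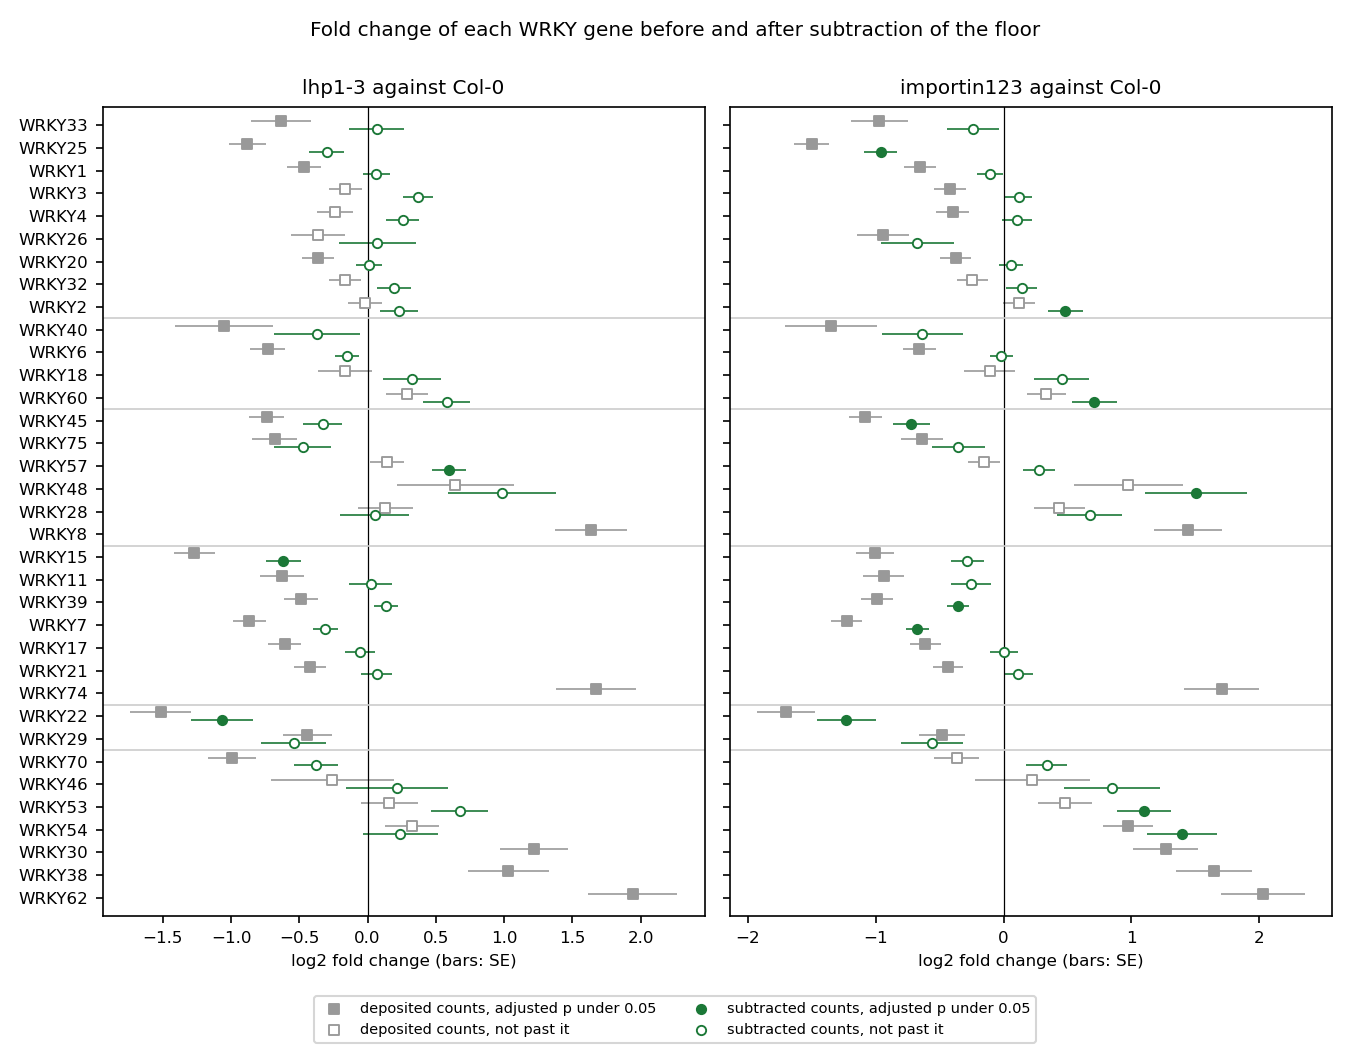
Log2 fold change of each WRKY gene in lhp1-3 (left) and importin123 (right) against Col-0, with bars of 1 SE, on deposited counts (grey squares) and after subtraction of the floor (green circles), by structural group from I at the top to III at the bottom. Filled symbols have an adjusted p under 0.05, and most grey squares lie left of their green circles. Medians were -0.36 and -0.40 over the 35 grey squares, and 0.06 and 0.03 over the 30 green circles. The 5 genes with no green circle rose as deposited in both mutants.

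Group I holds the immune and heat regulator WRKY33 and its relatives WRKY25 and WRKY26, which are known from heat tolerance. WRKY25 (AT2G30250) fell in importin123 to 10.6 and 11.3 RPKM above the floor, against 21.9 and 20.8 in Col-0. Both importin123 libraries lay at about the same level, well below both Col-0 libraries, with a log2 fold change of -0.96 ± 0.13 (adjusted p = 0.0010), and -1.5 ± 0.14 as deposited. In lhp1-3 the gene had 19.4 and 15.2 RPKM above the floor, both libraries below those of Col-0, and a change of -0.30 ± 0.13 that did not pass (adjusted p = 0.145), against a fall of -0.88 ± 0.13 as deposited. WRKY25 was lower in importin123 than in lhp1-3 by -0.66 ± 0.13 (adjusted p = 0.00909), a call lost without lhp1-3 library 1 (-0.47) or importin123 library 1 (-0.63).

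WRKY33 itself had 110.5 and 104 RPKM above the floor in lhp1-3, 77.4 and 96.0 in importin123, and 81.3 and 123 in Col-0. The groups overlapped, and the changes of 0.07 ± 0.20 in lhp1-3 and -0.24 ± 0.20 in importin123 did not pass after subtraction. As deposited WRKY33 fell in both, by -0.63 ± 0.22 (adjusted p = 0.0180) and -0.97 ± 0.22 (adjusted p = 0.0013). The fall in lhp1-3 was lost without Col-0 library 2 (-0.30) or lhp1-3 library 1 (-0.64) or 2 (-0.59), and that in importin123 without importin123 library 1 (-0.62). WRKY26 had 8.62 and 6.97 in lhp1-3, 3.19 and 6.08 in importin123, and 6.89 and 7.94 in Col-0. It was lower in both importin123 libraries than in either Col-0 library, but the pair differed so much that -0.67 ± 0.29 did not pass after subtraction (adjusted p = 0.0984), against a fall of -0.94 ± 0.20 as deposited. WRKY2, known from zygote polarity and pollen, rose in importin123 after subtraction alone, with 4.48 and 5.50 RPKM above the floor against 3.37 and 3.78 in Col-0 (0.48 ± 0.14, adjusted p = 0.0238, and 0.12 ± 0.13 as deposited). The call was lost without Col-0 library 1 (0.40) or importin123 library 2 (0.34), and with no filter on low values (0.41). WRKY3 and WRKY4, known from resistance to fungi that kill their host tissue, had lhp1-3 levels above Col-0. WRKY3 stood at 12.5 and 11.01 in lhp1-3 and at 9.39 and 8.81 in Col-0, with a change of 0.37 ± 0.11 that missed the threshold (adjusted p = 0.0533). For WRKY4 the change was 0.26 ± 0.12 (adjusted p = 0.179). WRKY1, WRKY20 and WRKY32 had changes between -0.10 and 0.19 after subtraction, and none passed in either mutant. As deposited, 4 of the 9 genes fell in lhp1-3 and 7 in importin123. Of the smaller deposited falls, that of WRKY1 in lhp1-3 was lost without lhp1-3 library 1 (-0.46), and that of WRKY20 there without Col-0 library 2 (-0.32) or lhp1-3 library 1 (-0.30). In importin123 those of WRKY3 (-0.34 and -0.20), WRKY4 (-0.32 and -0.12) and WRKY20 (-0.30 and -0.22) were lost without lhp1-3 library 1 or importin123 library 1, and that of WRKY20 also without Col-0 library 2 (-0.33).

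Groups IIa and IIb hold WRKY18, WRKY40 and WRKY60, which bind each other and restrain basal defence, and WRKY6, a senescence regulator that represses the phosphate exporter gene PHO1. WRKY60 rose in importin123 after subtraction alone, to 4.75 and 4.89 RPKM above the floor against 2.64 and 3.26 in Col-0. Both importin123 libraries exceeded both Col-0 libraries, and the change was 0.71 ± 0.17 (adjusted p = 0.0131), against 0.33 ± 0.15 as deposited (adjusted p = 0.0581). Without Col-0 library 1 it was 0.57 and did not pass. In lhp1-3 the gene had 4.44 and 4.37, also above both Col-0 libraries, and 0.58 ± 0.17 missed the threshold (adjusted p = 0.0560). WRKY40 had 61.0 and 55.7 in lhp1-3, 45.2 and 51.9 in importin123, and 49.8 and 101 in Col-0. The Col-0 libraries were so far apart that both mutants lay within or beside their range, and neither -0.37 ± 0.32 nor -0.63 ± 0.32 passed. The deposited falls of WRKY40, -1.05 ± 0.36 in lhp1-3 and -1.35 ± 0.36 in importin123, were lost without either library of the mutant concerned (-1.07 and -0.99 in lhp1-3, -1.05 and -1.53 in importin123). The fall in lhp1-3 was also lost without either importin123 library (-0.9993 and -0.9998). WRKY18 showed 0.32 ± 0.21 and 0.45 ± 0.21 with no call on either count. WRKY6 fell as deposited in lhp1-3 and importin123 (-0.73 ± 0.13 and -0.66 ± 0.13), and stood at -0.15 ± 0.09 and -0.02 ± 0.09 after subtraction.

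Group IIc holds genes tied to phosphate, drought and defence. WRKY45 (AT3G01970), an activator of the phosphate transporter gene PHT1;1, fell in importin123 to 5.61 and 5.65 RPKM above the floor, against 8.79 and 9.78 in Col-0. The importin123 libraries nearly coincided below those of Col-0, with a change of -0.72 ± 0.14 (adjusted p = 0.00546) and -1.08 ± 0.13 as deposited. In lhp1-3 it had 7.94 and 6.84, again below both Col-0 libraries, and -0.33 ± 0.14 did not pass after subtraction (adjusted p = 0.150), against a fall of -0.74 ± 0.13 as deposited. WRKY75, induced by phosphate starvation, had 4.63 and 3.61 in lhp1-3, 4.19 and 4.76 in importin123, and 4.98 and 6.48 in Col-0, with no call after subtraction and deposited falls of -0.68 ± 0.16 and -0.64 ± 0.16. The fall in importin123 was lost without its library 1 (-0.45).

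WRKY57, which promotes drought tolerance and delays jasmonate-induced senescence, rose in lhp1-3 after subtraction alone. It stood at 8.10 and 7.17 RPKM above the floor in lhp1-3 and at 5.51 and 4.604 in Col-0, a change of 0.60 ± 0.12 (adjusted p = 0.0165), and 0.14 ± 0.12 as deposited. The groups did not overlap, but the call was lost without Col-0 library 2 (0.47) or lhp1-3 library 1 (0.51). WRKY48, a repressor of defence against bacteria, rose in importin123 after subtraction alone, to 6.30 and 6.68 against 1.36 and 3.20 in Col-0 (1.51 ± 0.40, adjusted p = 0.0287, and 0.98 ± 0.43 as deposited). Its Col-0 libraries differed by more than 2-fold, and the call was lost without importin123 library 1 (1.57) or 2 (1.47) and with a replicate block (1.55, adjusted p = 0.0533). In lhp1-3 WRKY48 had 5.32 and 3.73, above both Col-0 libraries, and 0.99 ± 0.40 did not pass (adjusted p = 0.150). WRKY28, known as an activator of the salicylic acid synthesis gene ICS1, stood at 0.05 ± 0.26 in lhp1-3 and 0.67 ± 0.26 in importin123 with no call (adjusted p = 0.0659 in importin123).

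Group IId proteins bind calmodulin, and WRKY7, WRKY11 and WRKY17 are known as repressors of basal resistance. WRKY7 (AT4G24240) fell in importin123 to 11.4 and 11.5 RPKM above the floor, against 18.1 and 18.4 in Col-0. Each pair was tight and the groups were well apart, with a change of -0.67 ± 0.09 (adjusted p = 0.00107) and -1.23 ± 0.12 as deposited. In lhp1-3 the gene lay between them at 14.9 and 14.5, a change of -0.31 ± 0.09 that missed the threshold after subtraction (adjusted p = 0.0533) and fell as deposited (-0.87 ± 0.12). Its close relative WRKY11 had 33.0 and 32.6 in lhp1-3, 27.1 and 27.0 in importin123, and 26.5 and 38.1 in Col-0. WRKY17 had 15.0 and 13.2, 15.3 and 13.97, and 15.0 and 14.2 in the same order. For both the groups overlapped or met, and the changes after subtraction lay between -0.26 and 0.02 with no call. As deposited both fell in both mutants (-0.94 to -0.61), and the fall of WRKY11 in lhp1-3 was lost without Col-0 library 2 (-0.34).

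WRKY15 (AT2G23320) fell in lhp1-3 to 36.6 and 35.2 RPKM above the floor, against 47.8 and 62.3 in Col-0, a change of -0.62 ± 0.13 (adjusted p = 0.0172) and -1.27 ± 0.15 as deposited. The lhp1-3 libraries lay below both Col-0 libraries, but the subtracted call was lost without Col-0 library 2 (-0.41), lhp1-3 library 1 (-0.64) or lhp1-3 library 2 (-0.59). In importin123 WRKY15 had 46.3 and 44.0, and -0.29 ± 0.13 did not pass after subtraction (adjusted p = 0.111), against a fall of -1.01 ± 0.15 as deposited. WRKY39 (AT3G04670), known from heat tolerance, was lower in the other mutant. It fell in importin123 to 18.1 and 17.9 RPKM above the floor, against 22.6 and 23.3 in Col-0 (-0.35 ± 0.09, adjusted p = 0.0134, and -0.99 ± 0.13 as deposited), and this call was lost without Col-0 library 2 (-0.33) or importin123 library 1 (-0.34). In lhp1-3 it had 25.5 and 25.05, slightly above Col-0, with 0.14 ± 0.09 after subtraction and -0.49 ± 0.12 as deposited, a fall lost without lhp1-3 library 1 (-0.46). WRKY21 stood at 0.07 ± 0.11 and 0.12 ± 0.11 after subtraction, with deposited falls of -0.42 ± 0.12 and -0.44 ± 0.12, each lost without library 1 of the mutant concerned (-0.43 in lhp1-3 and -0.32 in importin123).

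Group IIe holds WRKY22 and WRKY29, which act downstream of the flagellin receptor and its MAP kinase cascade. WRKY22 (AT4G01250) fell in both mutants. It had 9.13 and 8.98 RPKM above the floor in lhp1-3, 8.55 and 7.61 in importin123, and 14.1 and 23.8 in Col-0. All mutant libraries lay below both Col-0 libraries, which were themselves far apart. The change in lhp1-3 was -1.07 ± 0.23 (adjusted p = 0.0231) and -1.52 ± 0.22 as deposited. In importin123 it was -1.23 ± 0.23 (adjusted p = 0.00570) and -1.70 ± 0.23 as deposited. The subtracted call in lhp1-3 was lost without lhp1-3 library 1 (-1.07) or 2 (-1.05), without importin123 library 1 or 2 (-1.04 each), and in a fit of the 4 libraries compared (-1.04, adjusted p = 0.0563). In importin123 it was lost without importin123 library 2 (-1.14, adjusted p = 0.0548). WRKY29 had 2.56 and 1.93 in lhp1-3, 2.07 and 2.37 in importin123, and 2.88 and 3.67 in Col-0, with -0.54 ± 0.24 and -0.56 ± 0.24 and no call after subtraction. Its deposited falls (-0.44 ± 0.18 and -0.48 ± 0.18) changed sign with limma on log2(RPKM + 1), to 0.0094 and 0.042. They were also lost without Col-0 library 2 (-0.26 and -0.30), with nuclear features alone (-0.37 and -0.39) and without either library of the mutant concerned (-0.51 and -0.34 in lhp1-3, -0.35 and -0.47 in importin123). In lhp1-3 the fall was lost without either importin123 library (-0.39 each), and in importin123 without lhp1-3 library 1 (-0.41).

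Group III holds regulators of salicylic acid responses and senescence. WRKY54 (AT2G40750), which with WRKY70 holds back senescence, rose in importin123 to 4.01 and 4.95 RPKM above the floor, against 1.31 and 2.099 in Col-0. The importin123 libraries exceeded both Col-0 libraries, with a change of 1.39 ± 0.27 (adjusted p = 0.00513) and 0.97 ± 0.20 as deposited. In lhp1-3 the gene had 2.28 and 1.74, within or just above the Col-0 range (0.24 ± 0.27, adjusted p = 0.581). WRKY53, a promoter of senescence, rose in importin123 after subtraction alone, to 12.3 and 14.8 against 5.02 and 7.61 in Col-0 (1.1 ± 0.21, adjusted p = 0.00510, and 0.48 ± 0.21 as deposited). In lhp1-3 it had 11.1 and 9.09, above both Col-0 libraries, and 0.67 ± 0.21 did not pass (adjusted p = 0.0665).

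WRKY70, which favours salicylic acid over jasmonate responses, had 22.4 and 24.1 RPKM above the floor in lhp1-3, 34.97 and 41.3 in importin123, and 25.3 and 35.1 in Col-0. The lhp1-3 libraries lay just below Col-0 and the importin123 libraries at or above its upper value, and neither -0.38 ± 0.16 nor 0.34 ± 0.16 passed after subtraction. As deposited WRKY70 fell in lhp1-3 (-0.99 ± 0.18) and stood below 0 in importin123 (-0.37 ± 0.18, adjusted p = 0.0755), so its direction there differs between the counts. WRKY46, which acts with WRKY53 and WRKY70 in basal resistance, had 10.13 and 7.77 in lhp1-3, 13.8 and 13.98 in importin123, and 4.70 and 10.7 in Col-0. Its importin123 libraries exceeded both Col-0 libraries, but with Col-0 so spread 0.85 ± 0.38 did not pass (adjusted p = 0.124). All 4 testable group III genes thus had importin123 values above 0 after subtraction, between 0.34 and 1.39, of which 2 passed.

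**Figure D3:**
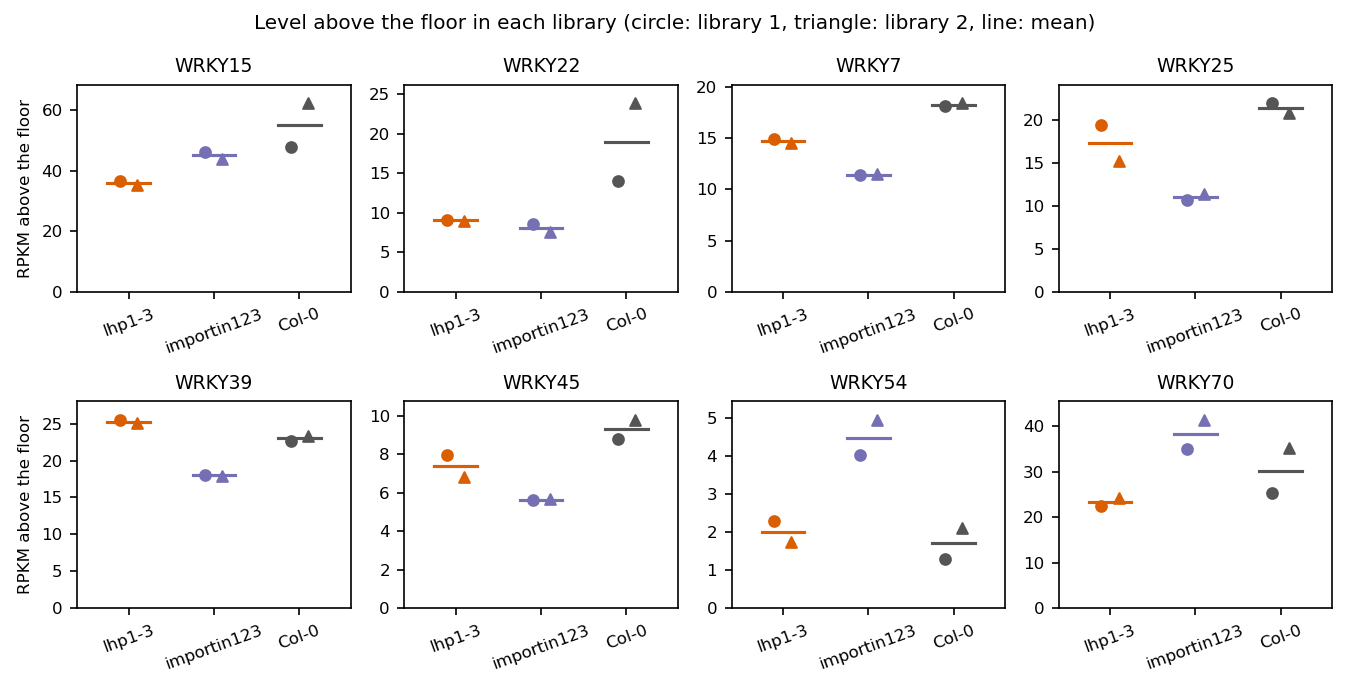
RPKM above the floor in each library (circle for library 1, triangle for library 2, line for the mean) for the 8 WRKY genes that passed on both counts in any comparison, with lhp1-3 left, importin123 in the middle and Col-0 right. WRKY7, WRKY25 and WRKY45 are lowest in importin123, WRKY54 is highest there, and WRKY22 is low in both mutants.

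Set directly against lhp1-3, importin123 had higher levels of 2 group III genes and lower levels of WRKY25, WRKY39 and WRKY7. WRKY54 was higher in importin123 than in lhp1-3 by 1.16 ± 0.27 (adjusted p = 0.0194) and by 0.65 ± 0.19 as deposited. WRKY70 was higher by 0.72 ± 0.16 (adjusted p = 0.0174) and by 0.63 ± 0.18 as deposited. WRKY39 was lower by -0.49 ± 0.09 (adjusted p = 0.00606) and by -0.50 ± 0.13 as deposited, and WRKY7 by -0.36 ± 0.09 after subtraction alone (adjusted p = 0.0261). WRKY39 kept its subtracted call without each library in turn, whereas its deposited call was lost without lhp1-3 library 1 (-0.45) or 2 (-0.51) or importin123 library 1 (-0.36). The subtracted calls of WRKY54, WRKY70 and WRKY7 were lost without each of the 4 libraries compared. Without lhp1-3 library 1, lhp1-3 library 2, importin123 library 1 and importin123 library 2, in that order, WRKY54 stood at 1.37, 0.97, 1.29 and 0.98, WRKY70 at 0.67, 0.77, 0.82 and 0.57, and WRKY7 at -0.34, -0.38, -0.37 and -0.38. The deposited calls of WRKY54 and WRKY70 were likewise lost without each of these libraries, at 0.79, 0.56, 0.83 and 0.51 for WRKY54 and at 0.62, 0.68, 0.89 and 0.38 for WRKY70. That of WRKY54 was also lost with a replicate block (0.63, adjusted p = 0.0660) and with a mean of at least 20 counts (0.65, adjusted p = 0.0504). The deposited call of WRKY25 was lost without lhp1-3 library 1 (-0.42) or importin123 library 1 (-0.45). The other 2 testable group III genes, WRKY46 and WRKY53, were at 0.63 ± 0.38 and 0.43 ± 0.21 with no call. The median over group III was 0.67, beside 0.01 over the 30 genes. Of groups IIa and IIb and of group IIe none was called (0 of 4 and 0 of 2 at an unadjusted p under 0.05, and 0 in DESeq2). Of the 5 testable group IIc genes none was called either, with 3 at an unadjusted p under 0.05 and 0 in DESeq2.

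**Figure D4:**
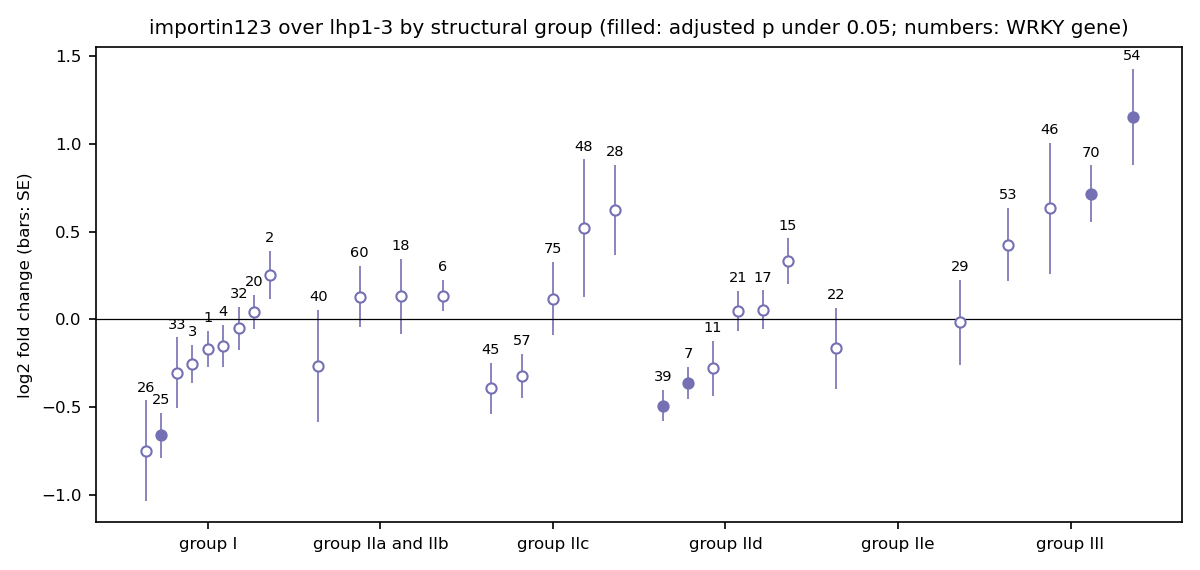
Log2 fold change of importin123 over lhp1-3 after subtraction of the floor, with bars of 1 SE, for the 30 testable WRKY genes by structural group, each marked with its WRKY number and filled where the adjusted p was under 0.05. The 4 group III genes lie above 0, between 0.43 and 1.16, and WRKY25, WRKY39 and WRKY7 are the filled points below 0.

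The 5 genes too near the floor to test were WRKY8, WRKY30, WRKY38, WRKY62 and WRKY74. As deposited all 5 rose in lhp1-3 and in importin123. WRKY62, which with WRKY38 represses basal defence, had 1.80 and 2.01 RPKM in lhp1-3, 2.29 and 2.01 in importin123, and 0.25 and 0.467 in Col-0. These values lay within 1 RPKM of each library's floor, and its deposited changes were 1.94 ± 0.33 and 2.03 ± 0.33. WRKY38 had 1.57 and 1.45 RPKM in lhp1-3, against floors of 1.53 and 1.44, and 2.67 and 2.25 in importin123, against floors of 1.79 and 1.32. In Col-0 it had 0.372 and 0.699. WRKY38 was thus at the floor in lhp1-3, where its deposited rise of 1.03 ± 0.30 was lost without Col-0 library 1 (0.64). WRKY30, induced early by oxidative stress, WRKY8 and WRKY74 had 1.85 to 2.43 RPKM in lhp1-3, 1.48 to 2.82 in importin123 and 0.334 to 0.738 in Col-0. No fold change above the floor is given for these genes.

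The Col-0 libraries differed from each other in WRKY levels more than the mutant pairs did. The median log2 ratio of library 2 to library 1 over the 30 genes, above the floor, was -0.11 in lhp1-3, 0.04 in importin123 and 0.25 in Col-0. Ratios beyond 0.5 in either direction occurred for 1, 1 and 10 of the 30 genes in the same order, that is 3.33%, 3.33% and 33.3%. Over all genes tested the shares were 9.51%, 10.3% and 9.45%, so the Col-0 libraries were not more spread in general. The highest Col-0 ratios were those of WRKY48 (1.23), WRKY46 (1.19) and WRKY40 (1.02). A list of 12 rapid touch and wound response genes was likewise higher in Col-0 library 2 for 12 of 12, with a median ratio of 0.52, against 0.11 in lhp1-3 and -0.0047 in importin123. The part of this difference in the comparisons with Col-0 was not tested.

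Genes that work with WRKY proteins are given after subtraction, beside the counts as deposited. The background for all lists below was 16.3% called in lhp1-3, 41.1% in importin123 and 22.7% between the mutants after subtraction. As deposited it was 75.3%, 75.5% and 8.89%. Called lower were 7.19%, 21.7% and 13.5% after subtraction, and 33.5%, 33.2% and 6.05% as deposited. Of 12 receptors and MAP kinases that signal to WRKY proteins, 0 rose and 2 fell in lhp1-3, and 1 rose and 1 fell in importin123 after subtraction. The medians were -0.16 and -0.13. As deposited 0 rose and 10 fell in each mutant, with medians of -0.70 and -0.76. BIK1, a kinase that binds immune receptors, fell in importin123 to 12.8 and 11.6 RPKM above the floor, against 20.6 and 23.8 in Col-0 (-0.87 ± 0.11, adjusted p = 0.000752), without each library in turn as well. In lhp1-3 it had 16.7 and 16.8 (-0.41 ± 0.11, adjusted p = 0.0388), a call kept only when Col-0 library 1 was left out. The MAP kinase gene MPK4 fell in lhp1-3 (-0.34 ± 0.10, adjusted p = 0.0481), and the call was lost without any of the 6 libraries (-0.39 to -0.28). MKK5, a MAP kinase kinase gene, rose in importin123 (0.34 ± 0.12, adjusted p = 0.0446) and kept its call only when Col-0 library 2 was left out (0.22 to 0.47). As deposited MKK5 fell in importin123 (-0.30 ± 0.13, adjusted p = 0.0411), so its direction there turns with the count used. Between the mutants, MPK4 (0.49 ± 0.10) and MKK1 (0.75 ± 0.21) were higher in importin123, and the flagellin receptor gene FLS2 (-0.51 ± 0.13) and BIK1 (-0.46 ± 0.11) were lower. Each of these 4 calls was lost without at least 1 library of the mutants, and as deposited only that of BIK1 passed.

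Of 9 genes of VQ proteins, small partners that bind WRKY domains, 7 were testable. In lhp1-3 MKS1, a partner of WRKY33, and SIB2 fell and no gene rose. MKS1 had 14.1 and 14.2 RPKM above the floor in lhp1-3 against 19.8 and 26.3 in Col-0 (-0.71 ± 0.15, adjusted p = 0.0168). SIB2 had 9.21 and 13.2 against 18.5 and 19.8 (-0.77 ± 0.17, adjusted p = 0.0210). Both lay below Col-0 in each library, but both calls were lost without Col-0 library 2 or lhp1-3 library 1, and that of MKS1 also without lhp1-3 library 2. With each library left out in turn, MKS1 ranged from -0.90 to -0.49 and SIB2 from -1.06 to -0.52. In importin123 0 of 7 passed after subtraction, with 1 at an unadjusted p under 0.05 and 0 in DESeq2. As deposited 0 of 9 rose and 7 fell in lhp1-3, and 1 rose and 6 fell in importin123. Between the mutants both genes were higher in importin123, MKS1 by 0.57 ± 0.15 (adjusted p = 0.0285) and SIB2 by 0.86 ± 0.17 (adjusted p = 0.0101). The MKS1 call was lost without each of the 4 libraries compared (0.52 to 0.59), and that of SIB2 without importin123 library 1.

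Of 21 genes under WRKY control or in the same defence pathways, 15 were testable. In lhp1-3 0 rose and 4 fell, and in importin123 1 rose and 4 fell. As deposited 4 of 21 rose and 9 fell in lhp1-3, and 5 rose and 7 fell in importin123. CBP60G, an activator of salicylic acid synthesis, fell in both, with 11.95 and 11.7 RPKM above the floor in lhp1-3, 9.23 and 10.5 in importin123, and 21.5 and 34.0 in Col-0 (-1.23 ± 0.20 and -1.49 ± 0.21). The ethylene synthesis gene ACS6, a target of WRKY33, fell to 116 and 117 in lhp1-3 and 81.3 and 86.0 in importin123, against 177 and 241 in Col-0 (-0.85 ± 0.16 and -1.32 ± 0.16). PHT1;1, the phosphate transporter gene that WRKY45 activates, had 37.4 and 28.1 in lhp1-3, 23.5 and 22.6 in importin123, and 47.2 and 48.5 in Col-0 (-0.55 ± 0.14 and -1.05 ± 0.14). All mutant libraries of these 3 genes lay below both Col-0 libraries. NHL10, a marker of flagellin response, fell in importin123 (-1.39 ± 0.16), to 8.95 and 8.97 against 22.3 and 24.6 in Col-0. In importin123 the falls of CBP60G, ACS6, PHT1;1 and NHL10 passed without each library in turn. In lhp1-3 the calls of CBP60G and ACS6 were lost without lhp1-3 library 1 or 2, and that of PHT1;1 without Col-0 library 2, lhp1-3 library 2 or either importin123 library. ICS1, the main salicylic acid synthesis gene, fell in lhp1-3 after subtraction alone (-0.77 ± 0.18, adjusted p = 0.0258). This call was lost without lhp1-3 library 1 or either Col-0 library, and was not made as deposited (-0.22 ± 0.13). ICS1 lay near the floor in lhp1-3, with 2.31 and 2.37 RPKM against floors of 1.53 and 1.44. Its Col-0 values were lower, at 1.97 and 2.03 RPKM. Above the floor it had 1.05 and 1.32 in lhp1-3 and 1.99 and 2.05 in Col-0, so the call rests on the floor subtracted. PR2, a pathogenesis-related glucanase gene, rose in importin123 to 5.27 and 2.02, against 0.447 and 0.819 in Col-0 (2.51 ± 0.59, adjusted p = 0.0131), and without importin123 library 1 it was 1.68 and did not pass. PR2 met the filter of the subtracted fit through its high importin123 libraries, so this call is not independent of that filter. PAD3, a camalexin synthesis gene bound by WRKY33, had 3.68 and 1.90 in lhp1-3, 7.56 and 6.09 in importin123, and 3.57 and 6.56 in Col-0, and passed in no comparison. Between the mutants SARD1 (0.94 ± 0.22) and ICS1 (0.67 ± 0.18) were higher in importin123 and NHL10 (-0.96 ± 0.16) and PHT1;1 (-0.51 ± 0.14) were lower, each call being lost without at least 1 library of the mutants and those of SARD1 and ICS1 not made as deposited. PR2 was also higher, with 5.27 and 2.02 in importin123 against 0.0947 and 0.254 in lhp1-3, where it is too near the floor for a fold change. The same limit of the filter applies here.

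All 12 touch and wound genes had values below 0 in each comparison. In lhp1-3 3 fell, in importin123 10 fell, and 4 were lower in importin123 than in lhp1-3, with medians of -0.42, -1.03 and -0.47. As deposited 12, 12 and 4 fell in the same order. CML38, a calmodulin-like gene, had 28.2 and 27.9 RPKM above the floor in lhp1-3, 7.36 and 6.69 in importin123, and 28.8 and 45.0 in Col-0. Its level was far lower in importin123 than in both others (-2.39 ± 0.21 against Col-0 and -2.0 ± 0.20 against lhp1-3). ZAT12, a zinc finger gene, had 131 and 132 in lhp1-3, 73.6 and 66.7 in importin123, and 166 and 232 in Col-0 (-1.50 ± 0.16 in importin123). The 3 falls in lhp1-3, those of TCH2, ZAT10 and ZAT12, were each kept only when Col-0 library 1 was left out, with values of -0.33 to -0.36 without Col-0 library 2. TCH3 (-1.16, adjusted p = 0.0020) and ERF104 (-1.07, adjusted p = 0.00097) also fell in importin123. Both were lower there than in lhp1-3 too (-0.82 and -0.89), a TCH3 call lost without each of the 4 libraries compared. In importin123 against Col-0, TCH4 and ERF109 lost the call without either importin123 library, and SZF1 and SZF2 without these or Col-0 library 2.

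**Figure D5:**
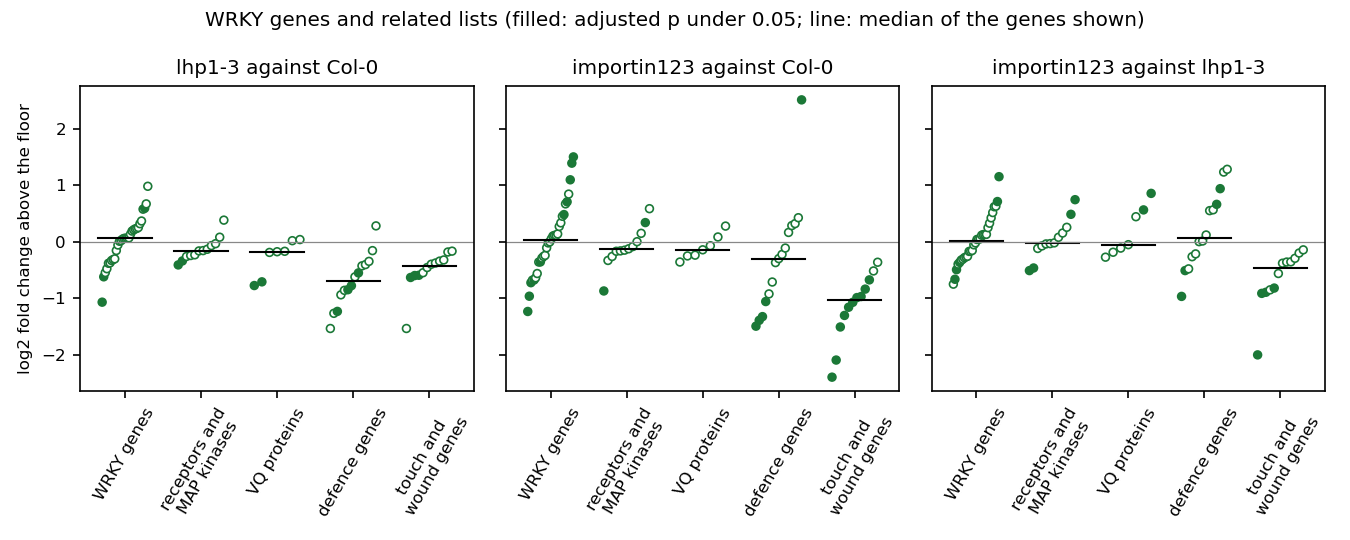
Log2 fold change above the floor of the testable WRKY genes and of 4 related lists in lhp1-3 against Col-0, importin123 against Col-0 and importin123 against lhp1-3, each point a gene, filled where the adjusted p was under 0.05, with a line at the median of the genes shown. The WRKY medians lie near 0 (0.06, 0.03 and 0.01), and the touch and wound genes lie below 0 in all 3 panels.

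The promoters of the 4 WRKY genes with the smallest adjusted p among those that passed on both counts are shown because WRKY promoters are known to hold W boxes, which WRKY proteins bind. Each runs 5′ to 3′ from 250 bases before to 50 after the gene start, read from the RefSeq genome TAIR10.1 on the gene's strand, so that it takes in upstream sequence and the first bases of the transcript. Capitals mark TTGACC or TTGACT on either strand. WRKY25 lies at chr2:12905289-12905588 on the minus strand, WRKY7 at chr4:12571288-12571587 on the plus strand, WRKY54 at chr2:17002479-17002778 on the minus strand, and WRKY45 at chr3:327363-327662 on the minus strand.
WRKY25: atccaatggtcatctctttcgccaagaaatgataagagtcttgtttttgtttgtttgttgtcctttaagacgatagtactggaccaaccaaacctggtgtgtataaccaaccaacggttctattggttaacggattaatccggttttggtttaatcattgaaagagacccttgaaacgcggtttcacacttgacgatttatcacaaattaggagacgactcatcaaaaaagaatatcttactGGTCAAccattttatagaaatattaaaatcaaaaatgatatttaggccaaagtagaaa
WRKY7: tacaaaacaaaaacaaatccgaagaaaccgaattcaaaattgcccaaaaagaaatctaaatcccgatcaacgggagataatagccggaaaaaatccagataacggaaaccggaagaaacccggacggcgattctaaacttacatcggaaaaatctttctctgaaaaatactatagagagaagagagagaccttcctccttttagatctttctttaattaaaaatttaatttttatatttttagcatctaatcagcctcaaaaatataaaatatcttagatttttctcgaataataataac
WRKY54: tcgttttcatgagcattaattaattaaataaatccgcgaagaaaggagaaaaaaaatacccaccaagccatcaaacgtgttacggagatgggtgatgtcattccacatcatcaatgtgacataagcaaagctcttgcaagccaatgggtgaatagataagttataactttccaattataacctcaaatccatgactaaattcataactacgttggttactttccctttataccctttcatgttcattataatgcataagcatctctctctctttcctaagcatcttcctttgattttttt
WRKY45: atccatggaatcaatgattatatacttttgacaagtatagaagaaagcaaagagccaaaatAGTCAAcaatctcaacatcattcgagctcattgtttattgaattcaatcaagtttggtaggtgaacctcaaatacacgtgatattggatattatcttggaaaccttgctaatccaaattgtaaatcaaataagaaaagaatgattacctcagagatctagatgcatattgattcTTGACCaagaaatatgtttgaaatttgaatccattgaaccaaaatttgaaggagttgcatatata
WRKY25 had 1 match and WRKY45 had 2, whereas WRKY7 and WRKY54 had 0 in this window. WRKY25, WRKY45 and WRKY7 fell in importin123, and WRKY54 rose.

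Over the 35 WRKY promoters 15 held TTGACC or TTGACT, that is 42.9%, beside 32.4% of 27443 promoters of protein-coding genes of the same length. The shorter TTGACN was held by 22, that is 62.9%, beside 50.4%. Among the 7 genes that passed in a mutant on both counts 3 had a match, again 42.9%, as did 12 of the other 28. Of TTGACN the same 7 genes held a match in 3, that is 42.9%, and the other 28 in 19, that is 67.9%. WRKY30, one of the genes near the floor, had the most matches with 3. These counts describe letters in a window and not binding.

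Some WRKY counts are uncertain because of neighbours. WRKY1, WRKY2, WRKY4, WRKY29, WRKY33, WRKY40 and WRKY53 overlap a gene on the opposite strand, by up to 341 bp for WRKY53, and the use of strand in counting is not given in the sources used here, so reads of the overlap cannot be told apart. WRKY40 shares at least 95% identity over at least 100 bp with AT3G32090, and reads may have been split between them. None of the 7 genes that passed in a mutant on both counts has such an overlap or match.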

How the data were processed

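Poly(A) RNA from 500 ng total RNA was sequenced, per the labels' protocols. FastQC, HISAT2, SAMtools, bedtools and edgeR with the TAIR10 build are named without settings, per the submitters' processing notes. The authors deposited whole-number counts and RPKM values for 34262 features in 6 libraries. The deposited RPKM values are reads per kb of the gene span, scaled to the column total, as checked for 32508 of 32548 features matched to TAIR10.1. The 2 libraries per genotype, more than depth, limit the precision.

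Counts were tested with edgeR 4.0.16 in R 4.3.3 (filterByExpr, TMM, robust quasi-likelihood, all 6 libraries, 1 coefficient per genotype, two-sided), with Benjamini-Hochberg adjustment over all features and a threshold of 0.05. Every adjusted p comes from this test unless another tool is named. The biological coefficient of variation was 0.140 as deposited and 0.142 after subtraction.

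As floor, the median of reads per kb in each library was taken over 2306 silent nuclear protein-coding genes of at least 1000 bp, the lowest 10%, and multiplied by gene length. The subtracted fit held nuclear genes with a mean of at least 10 counts and at least 1 floor above the floor. A gene high in only some genotypes could enter through those. Left out were 110 genes matching an organelle genome (BLAST 2.17.0, 95% over 100 bp). A subtracted fold is printed if each of the 2 genotypes exceeds the floor by 0.5 floors or more. SE was derived from the F statistic, as |log2 fold change| / sqrt(F).

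All members are named. The rule gave library values for members passing on both counts. For each other list and comparison it named up to 4 genes with the smallest adjusted p, not all with library values here. Library values of other members, and PR2, ICS1 between the mutants, PAD3 and touch genes beyond these 4, were chosen after their values were seen. Members and lists were chosen with earlier results of these data known. Libraries of each genotype differed beyond counting noise (chi-square per degree of freedom 21.9 to 52.1). Whether the replicate numbers pair the libraries is not stated, and same-numbered libraries did not deviate together. The fits were tested on simulated data. Alternatives were an adjusted p under 0.01, RLE size factors, DESeq2 1.42.0, the 4 libraries compared, a replicate block, each library left out, nuclear features alone, other filters, limma 3.58.1 on log2(RPKM + 1) or log2(RPKM + 0.25) (features averaging 0.5 RPKM or more), and a floor moved by 25% either way. Protein sequences were not used here.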

Additional observations from a re-analysis of the deposited data

Results flagged for a closer look

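Chloroplast features took a mean of 14.7% of counts in lhp1-3 and 16.2% in importin123, each above the highest Col-0 library at 3.27%. The result drew attention as a signal outside the WRKY genes that exceeded the level in the wild type. These features are part of the library totals behind the deposited counts and RPKM, and were left out of the subtracted counts. With nuclear features alone, 21 deposited calls were made in lhp1-3 and 25 in importin123, beside 22 and 25 with all features. In that fit WRKY20 (-0.29) and WRKY29 (-0.37) no longer passed in lhp1-3, nor did WRKY4 (-0.30), WRKY20 (-0.28) and WRKY29 (-0.39) in importin123.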

How the results depend on the processing

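Of 857 values of genes called as deposited, under the alternatives, 702 kept direction and call, 128 lost the call and 27 changed sign. Of 286 values called after subtraction, 242 kept both, 44 lost the call and 0 changed sign. For genes of other lists called after subtraction, 843 of 1022 values under alternatives of that fit kept both, 179 lost the call and 0 changed sign. Among values that did not pass, 139 of 2058 changed sign. In lhp1-3, sign changes after subtraction were WRKY1 (0.063), WRKY11 (0.023), WRKY20 (0.012), WRKY21 (0.067), WRKY33 (0.066) and WRKY39 (0.14). In importin123 they were WRKY3 (0.12), WRKY4 (0.10), WRKY17 (0.0012), WRKY20 (0.056) and WRKY21 (0.12). With limma on log2(RPKM + 1) and log2(RPKM + 0.25), in that order, signs changed in lhp1-3 for WRKY20 (0.073, 0.082), WRKY21 (0.021, 0.023) and WRKY29 (0.0094, 0.012), and in importin123 for WRKY3 (0.096, 0.10), WRKY4 (0.11, 0.12), WRKY20 (0.13, 0.15), WRKY21 (0.086, 0.093) and WRKY29 (0.042, 0.053).

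With subtraction, called WRKY genes moved from 22 of 35 to 3 of 30 in lhp1-3 and from 25 of 35 to 10 of 30 in importin123. The genes too near the floor to test had all been called as deposited. The background share called moved as well, from 75.3% to 16.3% in lhp1-3 and from 75.5% to 41.1% in importin123. Between the mutants, 4 deposited calls became 1 at an adjusted p under 0.01 and 0 with limma at either pseudocount (8 at an unadjusted p under 0.05, 4 in DESeq2). After subtraction, 3 calls in lhp1-3 became 0 at an adjusted p under 0.01 (11 at an unadjusted p under 0.05), 8 with DESeq2, 6 with the floor lower by 25% and 5 at 2 floors above the floor. In importin123 10 became 6, and between the mutants 5 became 2, at an adjusted p under 0.01. Leaving out each library gave 15 to 24, 20 to 28 and 0 to 6 deposited calls in lhp1-3, importin123 and between the mutants, and 0 to 5, 8 to 13 and 1 to 6 after subtraction. The cause was not tested. With a lone library left in a genotype, its spread is assumed to be like that of the others.

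Same-numbered libraries did not deviate together (r = -0.077 for lhp1-3 and Col-0, 0.039 for importin123 and Col-0, -0.056 for the mutants). With the replicate block, deposited calls were 21, 27 and 3 and subtracted calls 3, 10 and 5, in the same order of comparisons. Equal totals hide changes, such as the loss of WRKY48 in importin123 after subtraction.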

Other observations

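Within Col-0, group III genes differed between the libraries in 1 direction, with library 2 above library 1 for 4 of 4 genes and a median log2 ratio of 0.64 above the floor. In importin123 library 2 was also above library 1 for 4 of 4, with a median of 0.26, and in lhp1-3 for 1 of 4, with a median of -0.33. Group I genes had Col-0 ratios with a median of 0.079, and group IId genes 0.080. The ratio was a description added after the data were seen, with no test.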
